A study of Arabidopsis thaliana with 15 samples.

Results

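Leaf transcripts of 2 Arabidopsis thaliana insertion lines, pgn and mef37-1, were compared directly with each other, without the wild type Col-0. The comparison uses 6 of the 15 libraries of the series, 3 labelled pgn and 3 labelled mef37-1, chosen by their line label alone. Of the 32733 genes counted in each library, 17428 passed edgeR's filter on low counts and were tested. The study asked which transcript bases are recognised by E+ class pentatricopeptide repeat proteins, and the series holds total leaf RNA of Col-0 and 4 T-DNA insertion lines. The pgn plants carry an insertion in AT1G56570, the gene PGN, and the mef37-1 plants one in AT5G08305, the gene MEF37. Each is a single insertion allele, and the 15 libraries include no complemented line. Neither group received a treatment. The labels of both give leaves of plants aged 25.5 days, grown with 16 h of light at 20 °C and 8 h of dark at 18 °C. Replicates are numbered 1 to 3 in each line, and the series describes its samples as having 1 biological replicate. The p-values here come from fits blocked on replicate number unless stated, and measure the spread between libraries left after that block. Whether the libraries are independent biological replicates is not settled. No 2 libraries of pgn or mef37-1 agreed within sampling noise (mean chi-square per gene of 2 libraries, 26.7 to 76.8). Other lines are used below only as levels beside the comparison.

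PGN and MEF37 belong to a large plant family of RNA-binding proteins that are encoded in the nucleus and imported into organelles. A repeat tract reads the bases just upstream of a target cytidine, and the C-terminal E and E+ motifs bring in partner proteins with the DYW deaminase domain, which turn the cytidine into uridine. Plants without PGN are known for altered responses to salt, abscisic acid and necrotrophic fungi. Loss of such a factor leaves a few mitochondrial transcripts unedited, and lines of this kind are often read out by mitochondrial stress genes, respiratory chain genes and defence genes.

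The primers with which the study genotyped the lines are shown because they locate the disrupted parts of both genes. Each of the 4 matched the TAIR10.1 assembly at 1 place. The pgn pair lies on chromosome 1, at 21196402 to 21196422 (plus strand, across an exon border of PGN) and at 21197497 to 21197517 (minus strand, exon of PGN). The mef37-1 pair lies on chromosome 5, at 2670953 to 2670973 (plus strand, in the exon of AT5G08305) and at 2672082 to 2672102 (minus strand, in an exon of the neighbour AT5G08310).
pgn forward: tgtacaagcaaatgttgctgg
pgn reverse: catcatcttcctcactctcgc
mef37-1 forward: agtctttcctcgatttagcgc
mef37-1 reverse: cttggaatccaccattcagtg

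PGN, an E+ editing factor of mitochondria, was counted 9, 6 and 16 times in pgn replicates 1 to 3 and 32, 19 and 24 times in those labelled mef37-1. All 3 pgn libraries lay below all 3 others. On the log2 scale pgn minus mef37-1 came to -1.36 (standard error, SE, 0.318, unadjusted p = 0.00369, adjusted p = 1.00). These and all values of p below, unless another tool is named, are from the quasi-likelihood test of edgeR, blocked on replicate number. Col-0 held 23, 36 and 22 counts of PGN. AT5G08305 had 17, 20 and 12 counts in the libraries labelled mef37-1 and 10, 9 and 31 in pgn. Its groups overlap, and the libraries of its own insertion line are the higher ones in replicates 1 and 2. The log2 fold change was -0.13 (SE 0.419, unadjusted p = 0.760), and Col-0 held 8, 8 and 21 counts. The count of MEF37 therefore does not distinguish the libraries labelled mef37-1 from the rest. Every direction below is drawn against libraries that these gene counts identify by label only. The headers of their count files carry a name other than that label. MEF37 has 1 exon, so a count over it does not separate RNA on either side of an insertion. From RNA-seq of mef37-1 leaves, the study itself reports that full-length MEF37 RNA was absent and that editing was strongly reduced at several mitochondrial sites. Editing was not examined here.

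Across all genes, 0 of 17428 had an adjusted p under 0.05, a share of 0%. An unadjusted p under 0.05 was reached by 193 genes higher in pgn (1.11%) and 197 genes lower (1.13%). The 3 pgn libraries lay above the 3 libraries labelled mef37-1 in 448 genes (2.57%) and below them in 361 (2.07%). The fitted log2 fold changes had a median of 0.00, and 90% lay between -0.35 and 0.31. With 3 libraries a group an exact permutation test of a single gene cannot give a p below 0.1, and a sign test of 3 pairs cannot go below 0.25. Other tools called a few genes: 3 by DESeq2, 10 by the likelihood ratio test of edgeR and 1 by limma-voom, each blocked on replicate number. The 4 genes lowest in p, AT1G75945, AT1G67105, MAF5 and MAF4, all lay lower in pgn. Without a filter on low counts the first 3 of these reached an adjusted p under 0.05 by quasi-likelihood.

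**Figure D1:**
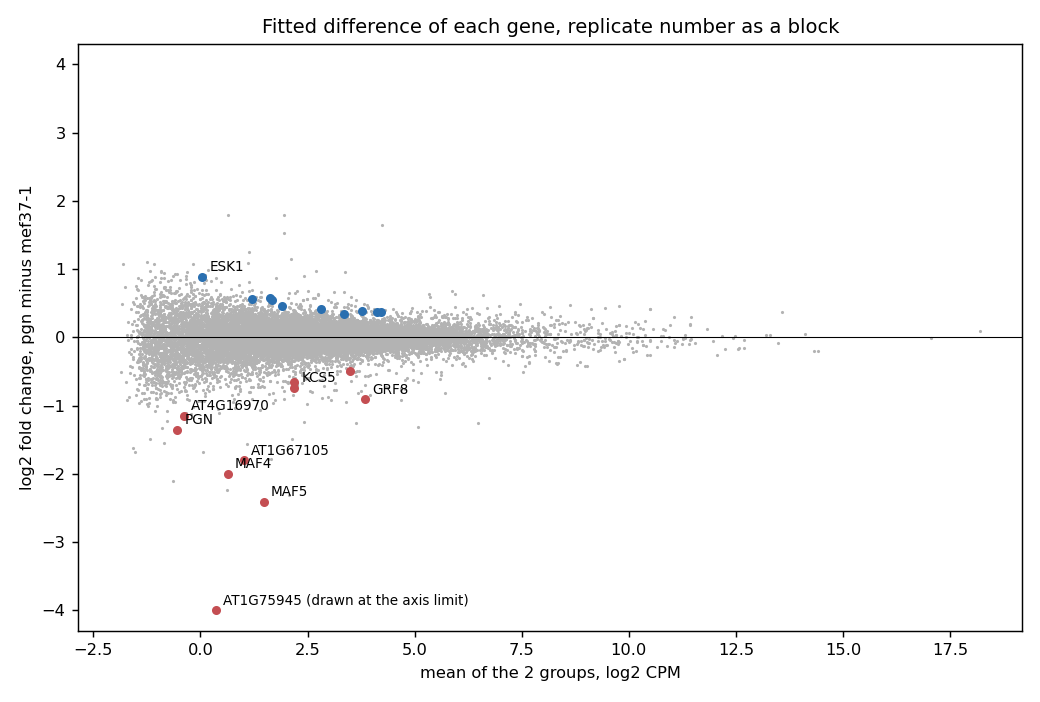
Fitted log2 fold change (pgn minus libraries labelled mef37-1) of 17428 genes against their mean level in log2 CPM, counts relative to the TMM-scaled library total. Blue and red points are the 10 named genes higher and the 10 lower in pgn. AT1G75945, at 0 in pgn, is drawn at the axis limit, and MAF5 and MAF4 lie at -2.41 and -1.997.

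The bases before the 4 genes lowest in p, and before GolS3, COR15A and LTI78, which are described further on, are printed so that the loci can be inspected. Each run holds the 250 bases upstream of the annotated start in TAIR10.1, 5′ to 3′ on the strand of the gene, and no window touches another annotated gene. For AT1G75945 (chr1:28515917-28516166, minus strand) and AT1G67105 (chr1:25057229-25057478, plus strand), capitals mark TATAAA on the gene's strand, a core promoter motif that 31.7% of 32546 nuclear windows hold. AT1G67105 has 3 matches and AT1G75945 has 0. Only this exact run of bases was searched for, and the AT1G75945 window holds the similar run tatataag. The matches therefore do not show which of the 2 genes has a working TATA box. For MAF4 (chr5:25991943-25992192) and MAF5 (chr5:25997254-25997503), both on the plus strand, capitals mark the longest stretch the windows share. It has 20 bases and occurs in 2 of all windows, which are these 2, and not before AGL31, MAF3, MAF1 or FLC. The stretch was picked because these 2 windows share it, so its presence in both is fixed by that choice. Stretches shared by other pairs of the family were not searched for, and no link to the levels was tested.
AT1G75945: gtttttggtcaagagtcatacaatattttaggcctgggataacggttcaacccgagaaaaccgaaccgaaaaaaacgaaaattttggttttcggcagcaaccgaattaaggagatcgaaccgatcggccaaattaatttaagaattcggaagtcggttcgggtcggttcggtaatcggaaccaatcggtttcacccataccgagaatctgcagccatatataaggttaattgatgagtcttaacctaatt
AT1G67105: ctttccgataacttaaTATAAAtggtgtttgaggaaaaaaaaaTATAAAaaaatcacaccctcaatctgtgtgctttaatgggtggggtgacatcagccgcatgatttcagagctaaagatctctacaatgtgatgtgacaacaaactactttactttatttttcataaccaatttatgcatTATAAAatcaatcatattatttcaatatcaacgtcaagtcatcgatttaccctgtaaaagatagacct
MAF4: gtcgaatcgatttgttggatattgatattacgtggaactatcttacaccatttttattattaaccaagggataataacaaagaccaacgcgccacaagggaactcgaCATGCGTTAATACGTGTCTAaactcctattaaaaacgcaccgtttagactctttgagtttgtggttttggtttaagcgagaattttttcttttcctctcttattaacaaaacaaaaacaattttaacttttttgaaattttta
MAF5: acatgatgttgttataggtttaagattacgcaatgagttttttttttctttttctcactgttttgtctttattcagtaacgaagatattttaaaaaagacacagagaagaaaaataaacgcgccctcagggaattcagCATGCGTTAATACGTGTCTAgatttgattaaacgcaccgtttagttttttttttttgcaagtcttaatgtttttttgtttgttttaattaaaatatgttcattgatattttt

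AT1G75945, a protein-coding gene of chromosome 1 (28515245 to 28515916, minus strand) without a named function in the annotation used, was counted 0, 0 and 0 times in pgn. Those labelled mef37-1 held 62, 73 and 60 counts. The level was at least 21.6-fold lower in pgn, with 3 counts per library taken as the floor, and the adjusted p was 0.333 (quasi-likelihood, edgeR). It was the gene with the lowest p of all, and it was called by DESeq2 (adjusted p = 6.21e-07), by the likelihood ratio test and by limma-voom. Col-0 held 0, 1 and 10 counts, at3g50420 held 79, 92 and 76, and at5g10690 held 43, 52 and 80. The libraries therefore fall at 2 levels, with pgn and Col-0 at or near 0 and the other 3 lines well above. The neighbour on one side, SKP1, a subunit of SCF ubiquitin ligases, had a log2 fold change of 0.10, and ATA27 on the other side was at 0 in all 6 libraries.

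AT1G67105, annotated as a non-coding RNA on chromosome 1 (25057479 to 25058264, plus strand), was counted 17, 19 and 37 times in pgn, against 73, 78 and 86 counts in the libraries labelled mef37-1. The groups do not overlap, and the 3 pairs differed by -1.82, -1.67 and -1.67 on the log2 scale. The fitted log2 fold change was -1.80 (SE 0.197, adjusted p = 0.333). Col-0 held 32, 25 and 102 counts, so its replicate 3 reached the level of the libraries labelled mef37-1. Both neighbouring genes, LBD40 and CYP735A2, had at most 3 counts in any of the 6 libraries. RBCS1A, the abundant small subunit gene of Rubisco, lies 2 annotated genes away and had a log2 fold change of -0.27.

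MAF4 and MAF5 are MADS-box genes related to FLC, the repressor of flowering that is silenced by winter cold, and stand in a row on chromosome 5 with AGL31 (also called MAF2) and MAF3. MAF5 was counted 22, 9 and 42 times in pgn and 145, 118 and 94 times in the other line, a log2 fold change of -2.41 (SE 0.307, adjusted p = 0.594). MAF4 was counted 11, 14 and 24 times in pgn and 76, 63 and 51 times in the other line, a log2 fold change of -1.997 (SE 0.269, adjusted p = 0.620). For both genes every pgn library lay below every library of the other line, and all 3 pairs were negative. The Col-0 libraries held 6, 1 and 3 counts of MAF5 and 17, 13 and 12 of MAF4, so the level of MAF5 in pgn lay between the others.

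The remaining members of the family had smaller fitted differences. AGL31 was at 8.76, 9.46 and 7.86 CPM in pgn and 9.81, 9.22 and 8.77 CPM in the libraries labelled mef37-1, a log2 fold change of -0.09 (SE 0.111). MAF3 had -0.09 (SE 0.152), MAF1, which lies on chromosome 1, had 0.01 (SE 0.102), and FLC itself, under 1 CPM in all 6 libraries, had -0.32 (SE 0.559). Of the 17 flowering genes listed, 11 passed the filter, with a median log2 fold change of -0.05. MAF4 and MAF5 were the 2 with an unadjusted p under 0.05, both lower, beside 1.13% of all genes tested. These 2 were already singled out above by their p, so the list adds nothing to them. SVP, SOC1 (AGL20) and FUL (AGL8) had unadjusted p-values above 0.05, and FT, TSF, LFY, AP1, CO and VIN3 did not pass the filter.

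**Figure D2:**
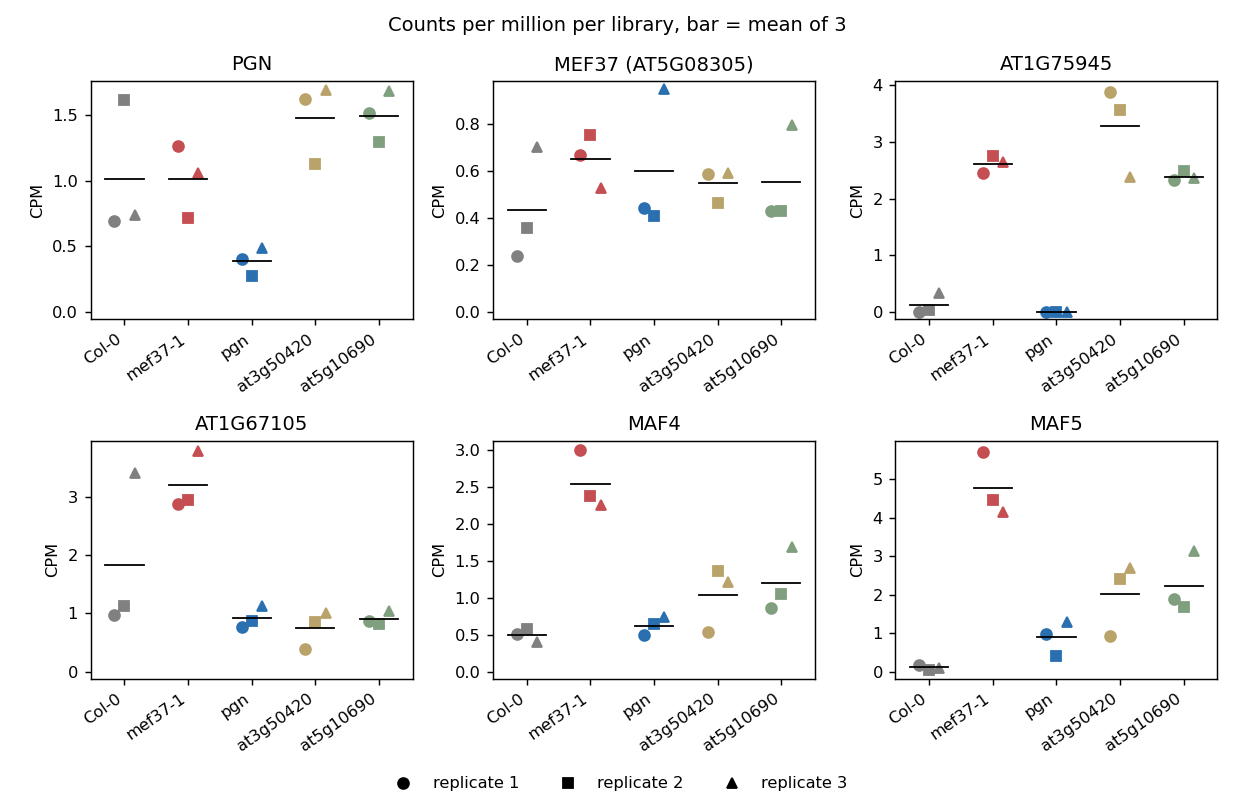
Level in CPM (TMM scaling over all 15 libraries) of PGN, MEF37, AT1G75945, AT1G67105, MAF4 and MAF5 in each library of the 5 lines, with the mean of 3 as a bar; marker shapes give the replicate number. The pgn points lie below those labelled mef37-1 in every panel but that of MEF37, where pgn replicate 3 is the highest library.

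Of the genes with an unadjusted p under 0.05, all 3 pairs on 1 side and no overlap between groups, 77 were lower and 75 higher in pgn, and the 10 with the smallest p on each side are named here as values. Beyond PGN and the 4 genes above, the lower side held GRF8, a growth-regulating transcription factor, at 9.51, 11.2 and 8.37 CPM in pgn against 14.0, 29.2 and 14.0 CPM (log2 fold change -0.90). The second library labelled mef37-1 stands above the rest in that gene. KCS5, a condensing enzyme of very-long-chain fatty acid and wax synthesis, was at 2.94, 4.44 and 2.90 CPM in pgn against 4.85, 6.59 and 5.51 CPM (-0.74). AT2G42270, annotated as a helicase of the U5 small nuclear ribonucleoprotein, had -0.49, the EF-hand protein gene AT4G27280 had -0.66 and the protein kinase gene AT4G16970 had -1.15. AT4G16970 was at 1.09 CPM or below in each of the 6 libraries compared. The likelihood ratio test, which called 10 genes, also called 5 outside this rule, of which 3 are given here after their values were seen. AT3G27400, a pectin lyase-like gene, was at 2.06, 0.896 and 0.876 CPM in pgn against 9.03, 4.44 and 1.39 CPM, EARLI1, a lipid transfer-like protein gene, at 3.55, 0.807 and 0.0907 against 7.37, 5.81 and 0.347 CPM, and AT3G28270, higher in pgn, at 6.48, 0.538 and 0.212 against 1.86, 0.222 and 0 CPM. All 3 pairs lay on 1 side in each of these genes, although the groups overlap.

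The higher side held smaller differences. ESK1, an acetyltransferase of cell-wall xylan whose mutants tolerate freezing, was at 1.05, 1.12 and 1.84 CPM in pgn against 0.504, 0.629 and 1.04 CPM in the libraries labelled mef37-1, a log2 fold change of 0.89. GAE3, an epimerase that makes the sugar of pectin, was at 4.12, 4.03 and 2.87 CPM against 2.71, 2.74 and 1.91 CPM (0.58). In both genes the separation of the groups is narrow beside their own range. ABH1, the large subunit of the nuclear cap-binding complex, had 0.39, and NAM, a NAC transcription factor, had 0.41. AT2G19310, an HSP20-like chaperone gene, had 0.37 with pairs at 0.37, 0.41 and 0.33. SELT had 0.56, the uncharacterised AT5G65495 had 0.54, APRL6 of the APR-like family had 0.46, ARD4 of the acireductone dioxygenase family had 0.37 and the cytochrome P450 gene CYP94D2 had 0.34. Adjusted p-values of all 10 were 1.00 (edgeR).

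Same-numbered pairs did not all differ in the same direction. Fitted on replicates 1 and 2 alone, after either library of replicate 3 was left out, the blocked quasi-likelihood test called 58 genes, 9 higher and 49 lower in pgn. The 2 fits shared 56 of their 58 genes. Among the 58 called without pgn replicate 3, the replicate 3 pair had the opposite sign in 50, which comprise 41 of the 49 lower genes and all 9 higher genes. MAF4, MAF5, AT1G75945 and AT1G67105 were among those that kept their sign. The 58 are 0.327% of the 17719 genes tested without pgn replicate 3, and they held 2 genes of the salicylic acid list and 3 of the list of necrotroph and jasmonate response, both described further on. Leaving out a library of replicate 1 or 2 instead called 0 genes. In a fit with the block a library without its partner adds nothing to the difference, so these fits cannot tell apart which of the 2 replicate 3 libraries departs.

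**Figure D3:**
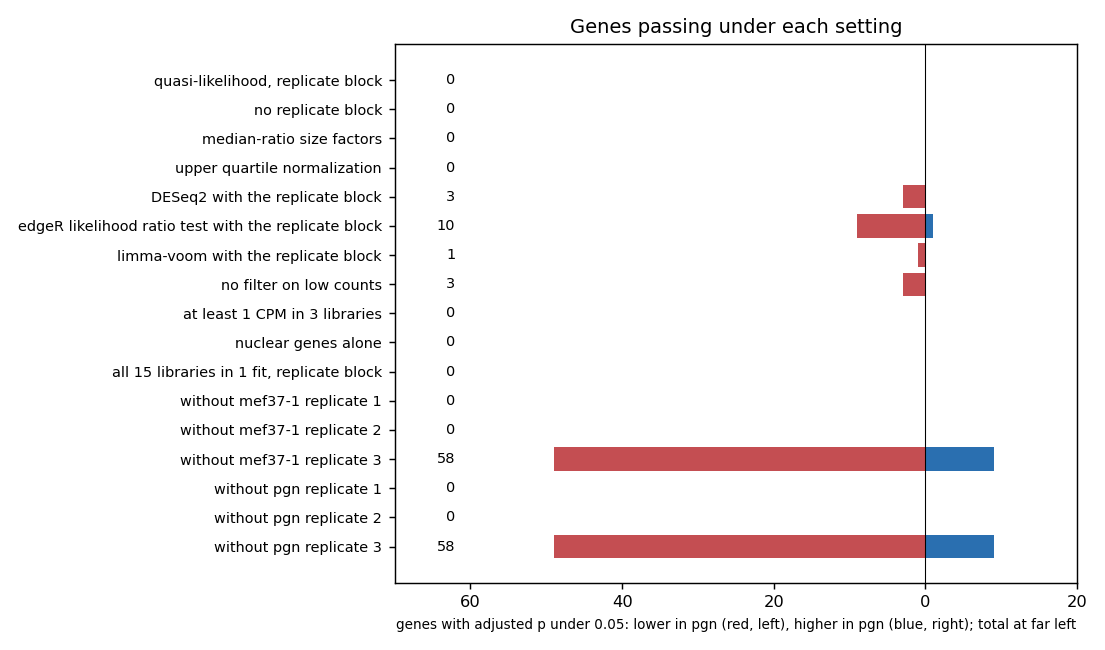
Number of genes with an adjusted p under 0.05 under each setting, lower in pgn to the left in red and higher to the right in blue. The 2 settings without a library of replicate 3 have 58 genes each, and every other setting has at most 10.

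Salicylic acid is the hormone of defence against biotrophic pathogens, and its target genes PR1, BGL2 (also called PR2) and PR5 are standard readouts. PR1 was at 14.3, 1.70 and 36.8 CPM in pgn and 32.9, 30.7 and 3.65 CPM in the libraries labelled mef37-1. BGL2 was at 163, 5.60 and 86.0 CPM in pgn and 313, 65.2 and 9.64 CPM in the others. PR5, a thaumatin-like protein gene, was at 23.4, 7.53 and 38.9 CPM in pgn and 78.1, 32.3 and 5.99 CPM. In all 3 genes pgn was the lower library in replicates 1 and 2 and the higher one in replicate 3, and the fitted differences of -0.73, -0.59 and -0.62 were smaller than their standard errors of 1.28, 1.23 and 0.922.

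All 17 salicylic acid genes listed passed the filter. In replicate 1, 16 were lower in pgn, in replicate 2 all 17 were lower, and in replicate 3 all 17 were higher, with medians of -0.89, -1.29 and 1.04 on the log2 scale. Over the 3 pairs 13 had a negative fitted difference and the median was -0.32, beside 0.00 for all genes tested. WRKY70, a transcription factor of the salicylic acid response, was the only member with an unadjusted p under 0.05 (log2 fold change -0.79, unadjusted p = 0.0495, pairs -1.17, -1.65 and 0.29). FMO1, which makes N-hydroxypipecolic acid, had 0.94 and the lipase-like SAG101 had -0.28. Summed over the list, the level was 320, 74.2 and 300 CPM in pgn and 614, 227 and 106 CPM in the libraries labelled mef37-1. In Col-0 it was 1545, 117 and 143 CPM, so one Col-0 library was above all of these and the groups span a wide range within every line.

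Genes for light harvesting and carbon fixation moved the other way in the same pairs. Of the 29 nuclear photosynthesis genes listed, which encode antenna, photosystem and Calvin cycle proteins, 26 were higher in pgn in replicate 1, 29 in replicate 2 and 0 in replicate 3. The medians of the pairs were 0.07, 0.33 and -0.54. Over the 3 pairs the median was -0.05 and 0 had an unadjusted p under 0.05. RBCS2B, a small subunit gene of Rubisco, had the smallest p, with 452, 652 and 191 CPM in pgn and 448, 647 and 413 CPM in the libraries labelled mef37-1. The summed level was 48420, 62800 and 29990 CPM in pgn and 45200, 50010 and 43930 CPM in the other line. Replicate 3 was the lowest of each line's 3 libraries here, in all 5 lines, and least so in the line labelled mef37-1. The ATP synthase genes of the nucleus changed sides in the same way, with 6 of 6 higher in pgn in replicate 2 and 0 of 6 in replicate 3.

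**Figure D4:**
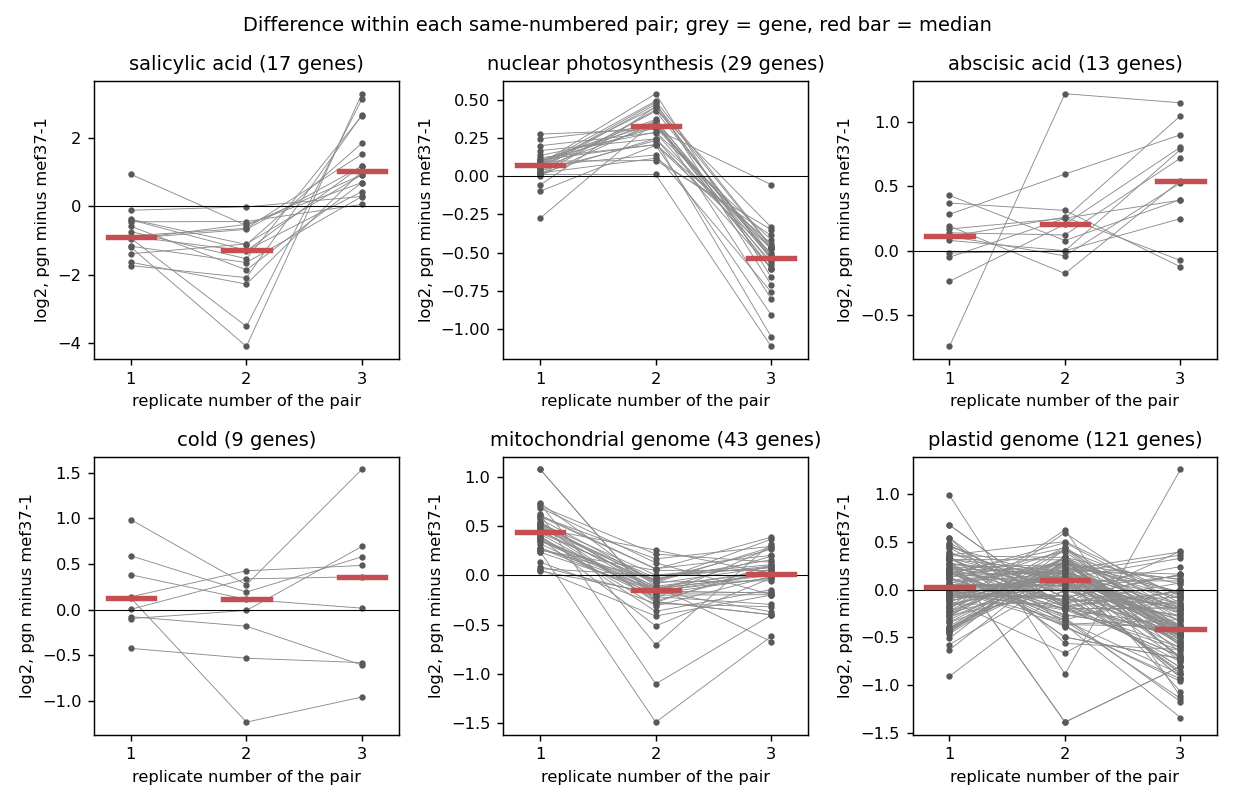
Difference on the log2 scale within each same-numbered pair, pgn minus the library labelled mef37-1, for the genes of 6 lists, with 1 grey line a gene and a red bar at the median. The 17 salicylic acid genes lie below 0 in replicate 2 and above 0 in replicate 3, the 29 nuclear photosynthesis genes do the reverse, and the abscisic acid medians are positive in all 3 pairs.

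Genes of the abscisic acid response, the hormone of drought and dehydration, differed to the same side in most members. Of 15 listed, 13 passed the filter and all 13 had a positive fitted difference, with a median of 0.26 and a range from 0.10 to 0.62. In the pairs 9, 11 and 11 of the 13 were higher in pgn, and 5 were higher in all 3, which is 38.5% beside 11.5% of all genes tested. The share was also above that of all genes in other lists, among them the nuclear cytochrome pathway (33.3%), glucosinolate synthesis (27.8%) and the mitochondrial retrograde response (25%). RAB18, a dehydrin, was at 5.87, 5.92 and 12.7 CPM in pgn and 4.81, 3.89 and 6.77 CPM in the libraries labelled mef37-1. Its groups overlap, while each pgn library lay above its own pair partner (log2 fold change 0.62, SE 0.151, unadjusted p = 0.00474, adjusted p = 1.00). LTI78, also called RD29A, was at 165, 124 and 351 CPM against 147, 104 and 170 CPM (0.49, unadjusted p = 0.0443). ABF3, a bZIP factor of the pathway, had 0.31 and RD22, a dehydration-responsive gene, had 0.33.

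Cold-regulated genes gave a similar picture with exceptions among the regulators. GolS3, a galactinol synthase of the raffinose pathway, was at 6.13, 5.06 and 15.4 CPM in pgn and 3.06, 4.18 and 5.25 CPM in the libraries labelled mef37-1, a log2 fold change of 0.97 (SE 0.234, unadjusted p = 0.00418). COR15A, a plastid protein that protects membranes in the cold, was at 207, 105 and 128 CPM against 137, 92.0 and 85.7 CPM (0.45, unadjusted p = 0.0152). KIN2 had 0.35 and was higher in pgn in all 3 pairs. CBF2, a transcription factor that switches such genes on, was lower in pgn in all 3 pairs, at 0.789, 1.79 and 1.57 CPM against 1.09, 2.63 and 2.39 CPM (-0.55, unadjusted p = 0.0297). Of the 9 cold genes 5 were higher in all 3 pairs (55.6%, beside 11.5% of all genes tested) and 2 were lower in all 3 (22.2%, beside 9.83%).

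The bases before GolS3 (chr1:3019389-3019638, plus strand), COR15A (chr2:17712331-17712580, minus strand) and LTI78 (chr5:21240467-21240716, plus strand) are shown in the same way as above. Capitals mark CCGAC on either strand, the core of the C-repeat that CBF proteins bind. There are 2, 2 and 3 matches, and 11.7% of 32546 nuclear windows hold at least 1. LTI78 was counted in the abscisic acid list. Of the 9 genes of the cold list, GolS3, COR15A and COR413-PM1 hold the motif (33.3%), while KIN2 and CBF2 do not. The 3 windows shown therefore do not stand for the whole list.
GolS3: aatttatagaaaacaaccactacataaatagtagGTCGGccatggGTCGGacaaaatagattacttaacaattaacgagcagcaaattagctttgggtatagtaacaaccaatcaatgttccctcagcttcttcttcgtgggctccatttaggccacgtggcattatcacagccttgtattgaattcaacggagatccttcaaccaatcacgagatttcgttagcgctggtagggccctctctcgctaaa
COR15A: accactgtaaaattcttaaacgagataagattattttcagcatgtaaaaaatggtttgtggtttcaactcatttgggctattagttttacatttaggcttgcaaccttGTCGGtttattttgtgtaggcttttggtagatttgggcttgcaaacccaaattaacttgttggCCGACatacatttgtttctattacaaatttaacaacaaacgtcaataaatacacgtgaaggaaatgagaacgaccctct
LTI78: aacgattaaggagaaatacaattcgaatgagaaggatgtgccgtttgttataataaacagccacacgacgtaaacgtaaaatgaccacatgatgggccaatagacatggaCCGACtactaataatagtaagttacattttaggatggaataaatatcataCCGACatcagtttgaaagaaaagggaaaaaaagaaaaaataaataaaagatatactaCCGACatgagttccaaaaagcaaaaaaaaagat

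Abundance of these transcripts also followed the replicate number in other lines. The abscisic acid list summed to 1184, 889 and 1220 CPM in pgn, to 1099, 823 and 764 CPM in the libraries labelled mef37-1 and to 1178, 945 and 1479 CPM in Col-0. The replicate 3 library labelled mef37-1 was the only one of the 5 lines' replicate 3 libraries that was not the highest of its line, and it was the lowest of all 15. The cold list summed to 883, 578 and 745 CPM in pgn and 732, 482 and 569 CPM in the libraries labelled mef37-1, so that each pgn library was above its partner. Markers of leaf cells, led by RBCS1A, summed to 18090, 22260 and 10120 CPM in pgn and 16430, 18670 and 15250 CPM in the libraries labelled mef37-1. Their part in these results was not tested. In bulk leaves, fewer cells of a type and less RNA per cell cannot be told apart.

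**Figure D5:**
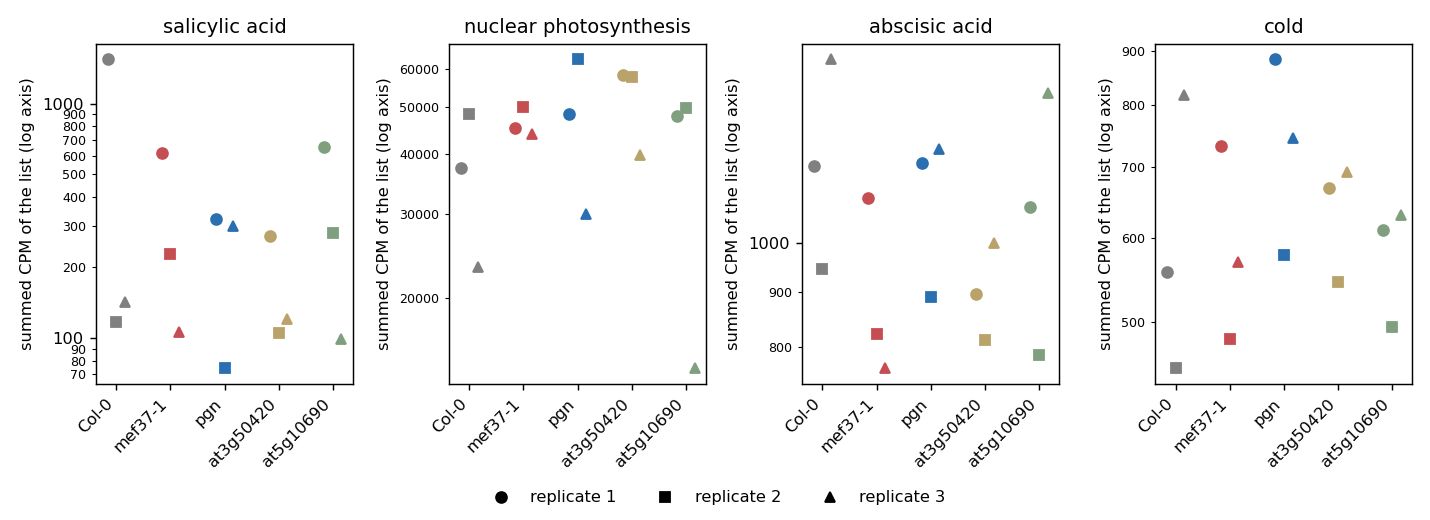
Summed level of the salicylic acid, nuclear photosynthesis, abscisic acid and cold lists in each library (CPM, TMM scaling over all 15 libraries, log axis), by line and with marker shape for the replicate number. Replicate 3 of pgn lies at 300 and of mef37-1 at 106 CPM in the salicylic acid panel, while replicates 1 and 2 are in the opposite order.

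Jasmonate and ethylene defence genes were mixed. PDF1.2, a plant defensin, was at 48.2, 8.74 and 22.1 CPM in pgn and 4.61, 1.92 and 28.1 CPM in the libraries labelled mef37-1, a log2 fold change of 1.65 (SE 0.671, unadjusted p = 0.0436). Its close copy PDF1.2b was at 12.7, 3.32 and 1.51 CPM against 0.543, 0.185 and 4.95 CPM. Both were far higher in pgn in replicates 1 and 2 and lower in replicate 3, the reverse of the PR genes. Reads with several positions were counted at each, so the defensin copies can share reads and are not independent measurements. How many reads they share was not examined. HCHIB, a basic chitinase, had -1.12 and the polygalacturonase inhibitor gene PGIP1 had -0.44. VSP1 of the same list had -0.81, with pairs at 0.11, -1.72 and -2.04. Of 25 genes listed 23 passed the filter, 15 with a positive and 8 with a negative difference, and the median was 0.12. At an unadjusted p under 0.05, 1 was higher and 0 were lower, beside 1.11% and 1.13% of all genes tested.

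Mitochondrial editing factors act on mitochondrial transcripts, so the genes of that genome and of the respiratory chain were compared as a group. Of 53 mitochondrial genes 43 passed the filter, with a median of 0.10. At an unadjusted p under 0.05, 2 were higher and 0 lower in pgn, beside 1.11% and 1.13% of all genes tested. In all 3 pairs 7 of the 43 were higher (16.3%, beside 11.5% of all genes tested) and 0 were lower (beside 9.83%). In replicate 1 all 43 were higher in pgn, in replicate 2 only 8 were, and in replicate 3 there were 23. Names were given to 19 of the 53 by matching exon length and strand with the RefSeq annotation, since the coordinates of the files and of that assembly differ there. ccmB (ATMG00110), for cytochrome c maturation, was at 44.2, 36.8 and 36.2 CPM in pgn and 27.1, 31.6 and 33.0 CPM in the libraries labelled mef37-1 (log2 fold change 0.35, unadjusted p = 0.0404). The groups of ccmB do not overlap, which held with pgn above in 2 of the 43 genes, beside 2.57% of all genes tested. ccmC (ATMG00900) had 0.29, the complex I genes nad6 (ATMG00270), nad4 (ATMG00580) and nad4L (ATMG00650) had 0.05, 0.07 and 0.10, and atp4 (ATMG00640) had 0.10. The unnamed ATMG00780 had 0.36. Of the named genes, nad6 carries a site that the study assigns to PGN. Sites in ccmB, ccmC, nad4, nad4L and atp4 are among those it found affected in mef37-1. The transcripts cox2, edited through PGN, and rps3 and mttB, edited through MEF37, received no name here and are not shown.

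Nuclear genes of the same machinery had small fitted differences. Among 19 nuclear complex I genes, 21 of the cytochrome pathway and 6 of ATP synthase, 0 had an unadjusted p under 0.05, and medians were 0.03, 0.08 and 0.01. In the cytochrome pathway 16 of the 21 were positive and 7 were higher in pgn in all 3 pairs (33.3%, beside 11.5% of all genes tested), and in complex I 2 were (10.5%). GAMMA CAL2, a carbonic anhydrase-like subunit of complex I, had 0.16, CYTC-2, a cytochrome c, had 0.32 and COX10, which makes the heme of cytochrome c oxidase, had -0.19. Among 12 tested genes that report mitochondrial dysfunction to the nucleus, 7 had a positive and 5 a negative difference, with a median of 0.05, and 3 were higher in all 3 pairs (25%). NAC13, a transcription factor released from the endoplasmic reticulum in that response, was at 3.94, 3.72 and 7.13 CPM in pgn and 3.72, 2.702 and 4.38 CPM in the libraries labelled mef37-1 (0.43, unadjusted p = 0.0406). Its groups overlap, and pgn replicate 3 stands above the rest. The uncharacterised AT2G41730 had 0.70.

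Of 25 other editing factor genes listed, 22 passed the filter, 14 with a positive and 8 with a negative difference, and 0 had an unadjusted p under 0.05. The pgn libraries lay above the others without overlap in 1 of the 22 and below them in 2, beside 2.57% and 2.07% of all genes tested. MEF19, the 1 above, was at 0.745, 0.717 and 0.635 CPM in pgn against 0.504, 0.407 and 0.347 CPM. MEF21, 1 of the 2 below, was at 0.613, 0.627 and 0.483 CPM against 0.969, 0.814 and 0.738 CPM. Both are mitochondrial editing factors counted under 1 CPM. LOI1, which edits mitochondrial transcripts and acts on isoprenoid synthesis, had 0.52. Of the 8 MORF genes analysed here, whose proteins assist the repeat proteins in editing, 7 had a positive difference, with MORF1 at 0.26 and a median of 0.14. Chloroplast genes gave 121 tested of 132, with a median of -0.10. At an unadjusted p under 0.05, 1 was higher (ATCG00200, 0.25) and 0 were lower, beside 1.11% and 1.13% of all genes tested. In all 3 pairs 4.96% were higher and 9.09% lower, beside 11.5% and 9.83% of all genes tested.

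Beside the insertions, 8 of 10 neighbours of PGN and 8 of 10 of AT5G08305 passed the filter. GolS2, a galactinol synthase induced by drought that lies 3 annotated genes downstream of PGN, was at 0.833, 0.852 and 16.9 CPM in pgn and 1.202, 0.185 and 3.17 CPM in the libraries labelled mef37-1 (log2 fold change 1.54, unadjusted p = 0.0233). Replicate 3 is the high library in both lines, and pgn was the lower one in replicate 1. AT1G56610, the next gene, had 0.32. HEMC, of tetrapyrrole synthesis, had the smallest p beside AT5G08305 with -0.19.

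The nitrate list had a median log2 fold change of -0.22, beside 0.00 for all genes tested, and 3 of its 8 tested genes were lower in pgn in all 3 pairs (37.5%, beside 9.83% of all). NIA1, a nitrate reductase, was at 7.01, 4.26 and 1.12 CPM in pgn and 8.53, 8.77 and 1.26 CPM in the libraries labelled mef37-1 (log2 fold change -0.55, unadjusted p = 0.0285), and UPM1, which makes the siroheme of nitrite reductase, had -0.32. PPH, a chlorophyll breakdown enzyme, had 0.32 (unadjusted p = 0.0492), and 9 of 10 senescence genes were higher in pgn in replicate 3 against 2 in replicate 1. LDOX, an anthocyanin enzyme, had -1.69 (unadjusted p = 0.0355) at 1.04 CPM or less in each of the 6 libraries, and F3H of the same pathway had 0.51. Of the 18 glucosinolate genes 15 were positive and 5 were higher in all 3 pairs (27.8%), with a median of 0.08, and BCAT4 and MYB51 had 0.30 and -0.33. The clock list held 17 tested genes and 0 with an unadjusted p under 0.05, with TOC1 at -0.19. The copper, iron, phosphate, sugar starvation, heat shock, light signalling, antioxidant and cell division lists also held 0, although 2 of the 7 light signalling genes were lower in all 3 pairs (28.6%).

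The 6 libraries held 21899344 to 28516724 counts. Chloroplast genes took 59.1% to 63.9% of them and mitochondrial genes 0.961% to 1.28%. Genes of RBCS1A, CAB1, RCA and CA1 mark the material as leaf, while the flower, seed, meristem and trichome markers listed did not pass the filter. PYK10, a beta-glucosidase of roots and seedlings, was the 1 root marker of 5 that passed, and the root list summed to 80.1, 0.685 and 0.184 CPM in pgn and 68.2, 8.70 and 0 CPM in the libraries labelled mef37-1. It was high in replicate 1 of both lines.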

How the data were processed

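Total leaf RNA libraries were mapped by the authors with STAR without spliced alignments, and the authors deposited raw gene counts from featureCounts 1.5.0-p2, summed over exons, by strand, with the TAIR10.36 annotation and reads of several positions counted at each. The counts carry no normalization. RefSeq names and sequences were taken from TAIR10.1, whose nuclear coordinates match those of the files. Values in CPM are counts relative to the TMM-scaled library total. Those of single genes are scaled over the 6 libraries of the comparison unless 15 are named. Levels summed over a list are scaled over all 15 libraries. The comparison was fitted in R 4.3.3 with edgeR 4.0.16 (filterByExpr, TMM, quasi-likelihood test, threshold of 0.05 after Benjamini-Hochberg adjustment) on the 3 pgn and the 3 libraries labelled mef37-1, blocked on replicate number. The numbers come from the sample labels, and no text describes them as pairs. Same-numbered libraries deviated together from their group means, with correlations of 0.672, 0.387 and 0.492 across 17428 genes, against -0.655 to 0.162 for different numbers. Deviations from a group mean cancel within a line, so positive values for the same number lower those for different numbers. Part of this gap is therefore set by the calculation. Differences within a pair are of log2 CPM with a prior count of 2. No 2 libraries of a line agreed within sampling noise.

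The genes and lists were chosen with earlier results of these data known. Named were PGN and MEF37, any called gene, up to 10 genes per direction with the smallest unadjusted p under 0.05, all 3 pairs on 1 side and no overlap, up to 4 genes of each list by p, mitochondrial genes carrying sites of either factor where named, and up to 5 neighbours on either side. PR1, BGL2, PR5, PDF1.2b, AGL31, MAF3, MAF1 and FLC were added as standard members of their groups. MORF2 is not analysed here. Alternatives were other normalizations and filters, DESeq2 1.42.0, edgeR's likelihood ratio test, limma 3.58.1, nuclear genes alone, all 15 libraries in 1 fit, no block, a threshold of 0.01 and each library left out. The fit was tested on simulated data. A count of 3 per library was taken as the floor, and it covers counting error only.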

Additional observations from a re-analysis of the deposited data

Results flagged for a closer look

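Some genes of the comparison were also high in the at3g50420 and at5g10690 libraries, which it does not use, with all 3 libraries of a line above all 3 of Col-0. AT1G75945 had a median of 3.57 CPM in at3g50420 and 2.36 CPM in at5g10690, beside 0 to 0.334 CPM in Col-0. MAF5 had 2.40 CPM and 1.89 CPM in these lines, beside 0.0448 to 0.181 CPM in Col-0. MAF4 had 1.05 CPM in at5g10690, beside 0.401 to 0.582 CPM. KCS5 had 5.31 CPM in at3g50420, beside 2.56 to 4.70 CPM. GAE3 had 3.14 CPM in at3g50420, beside 2.41 to 2.69 CPM, the narrowest of these gaps. None of these differences was tested here, and all values are on the scale of the 15 libraries.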

How the results depend on the processing

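No gene was called in the fit with the replicate block, and without the block the count was also 0, with 108 genes instead of 390 at an unadjusted p under 0.05. Counts that moved were 3 with DESeq2 and the block, 10 with edgeR's likelihood ratio test and the block, 1 with limma-voom and the block and 3 without a filter on low counts. Leaving out 1 library gave 0 to 58 genes, with 58 without either library of replicate 3 and 0 otherwise. The cause was not tested. Of 75 genes followed, 64 kept their sign under every setting. With 1 library left out, the log2 fold change of PGN ranged from -1.54 to -1.21 and that of MEF37 from -0.74 to 0.20. Of the 75 genes, 39 moved by over 1.5 times when 1 library was left out, 28 of them without crossing 0. The ranges were 0.70 to 2.89 for PDF1.2, 0.32 to 4.40 for PDF1.2b, 0.37 to 2.37 for GolS2, 0.20 to 0.65 for LTI78, 0.62 to 1.30 for GolS3, -1.39 to -0.45 for WRKY70, -0.72 to -0.24 for NIA1, -2.42 to -1.11 for LDOX and 0.17 to 0.45 for ccmB (ATMG00110). Ranges that crossed 0 were -0.064 to 0.15 for nad6 (ATMG00270), -0.074 to 0.18 for nad4 (ATMG00580), -0.062 to 0.19 for nad4L (ATMG00650), -0.093 to 0.23 for atp4 (ATMG00640), -2.37 to 0.92 for PR1, -2.14 to 1.04 for BGL2, -1.92 to 0.38 for PR5, -0.16 to 0.019 for MAF3, -0.77 to 0.48 for FLC and -0.041 to 0.072 for MAF1. With all 15 libraries in 1 fit PR1, BGL2 and PR5 had 0.65, 0.53 and 0.19, of the opposite sign. PGN and MEF37 were counted at most 36 times in a library of Col-0, pgn or the line labelled mef37-1, so differences of their size are poorly resolved at this depth.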
